A study of Rattus norvegicus with 6 samples.

Results

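MicroRNA arms that reach maturity without the usual first cut by the Drosha nuclease, rno-miR-320-3p, rno-miR-320-5p, rno-miR-484 and rno-miR-877, were followed in arterial and venous plasma of the rat. They were taken from the array by name, and all 4 of them were found among its 758 rat microRNAs. Plasma came from 3 healthy male SD (Sprague-Dawley) rats aged 10 weeks, for which the labels give no specific treatment. From each rat 1 arterial sample was drawn from the abdominal aorta and 1 venous sample from the postcava, the large vein that returns blood from the lower body. Both were cleared in a slow and then a fast spin, passed through a fine filter and hybridized to 1 single-colour Agilent array each, so that 3 arterial and 3 venous arrays were compared in 3 pairs. The filtered plasma is free of whole cells by design, and a level in it can reflect RNA released from any tissue or blood cell.

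Most microRNAs are cut out of a long primary transcript by Drosha and its partner DGCR8, exported from the nucleus, and cut again by Dicer. The precursor of miR-320 is instead transcribed directly as a short hairpin that carries the methylguanosine cap of a messenger RNA, and the cap hinders loading of its 5′ arm, so that the 3′ arm is the one that mostly enters Argonaute. miR-484 also bypasses Drosha and DGCR8 through a capped precursor. miR-877 is a mirtron, an entire short intron that the spliceosome releases and that folds into a precursor hairpin. miR-320 and miR-484 are commonly detected in plasma.

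The mature sequences of 2 of the 4 arms, rno-miR-484 and rno-miR-877, were matched by name in the RefSeq table of the GRCr8 assembly. They are shown because their seeds, the bases 2 to 8 that pair with target transcripts, are given in capitals and place the arms in different seed groups. On GRCr8 the arm rno-miR-484 lies at chr10:1394915-1394936 on the minus strand and the arm rno-miR-877 at chr20:2816284-2816303 on the plus strand.
rno-miR-484: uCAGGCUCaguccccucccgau
rno-miR-877: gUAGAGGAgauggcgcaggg

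The whole hairpins are given, with the mature arm in capitals, because the ends of the Mir877 hairpin show its origin as an intron and the Mir484 hairpin can be set beside it. The hairpin of Mir877 is 85 bases long, its mature arm is its first 20 bases, and it starts with GU and ends with AG, the bases that open and close most introns. In the RefSeq annotation Mir877 lies inside Abcf1, a gene of the ABC family involved in translation. The hairpin of Mir484 is 77 bases long and holds its mature arm at bases 46 to 67. Mir484 lies inside no protein-coding gene and between Nde1 and Marf1, and Mir320a, the gene of the miR-320 hairpin, lies beside Polr3d, a subunit of RNA polymerase III.
Mir877: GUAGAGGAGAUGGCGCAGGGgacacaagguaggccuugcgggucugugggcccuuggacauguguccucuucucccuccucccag
Mir484: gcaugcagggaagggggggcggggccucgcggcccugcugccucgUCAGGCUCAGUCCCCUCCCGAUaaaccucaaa

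Both arms were rich in G and C. The share of G and C was 65% in rno-miR-877 and 63.6% in rno-miR-484, where the median was 50% over the 114 mature sequences of microRNAs detected on all arrays. At least the share of rno-miR-877 was found in 18 of these 114 (15.8%). The seed of rno-miR-877 was shared with no other mature sequence in the table. The seed of rno-miR-484 was shared with rno-miR-344a-5p, an arm of another family whose precursors are described as capped, which was on the array, and with rno-miR-344-5p, which was not.
rno-miR-344a-5p: uCAGGCUCcuggcuagauu

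Each array carried 12128 spots, and Feature Extraction called 137 to 175 of the 758 microRNAs detected on an array. On all 6 arrays 126 microRNAs were detected. Each of the 4 arms was covered by 16 spots on every array, from 2 probes for rno-miR-320-3p and rno-miR-484, 3 for rno-miR-320-5p and 4 for rno-miR-877. No spot of the 4 arms was saturated. Rats 1 and 2 were hybridized on 1 slide and rat 3 on another, each slide holding both samples of its rats. The median processed intensity of the 126 microRNAs ranged from 17.2 to 52.9 between arrays, so that levels are compared after quantile normalization. Processed intensity is the spot brightness after background subtraction, and normalized intensity is its log2 after quantile normalization with values under 1 set to 1. Of the 758 microRNAs, 378 were at this floor on all 6 arrays. Those could not be called in any comparison, which lowers each share given over the 758. Differences are arterial minus venous on this log2 scale.

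The 2 arms of the miR-320 hairpin were called differently on every array. rno-miR-320-3p was detected in all 6 plasma samples, and all of its 96 spots over the 6 arrays were well above background. rno-miR-320-5p was detected in none, and 1 of its 96 spots was well above background, in the arterial plasma of rat 3, where the spot was left out as an outlier. In rats 1, 2 and 3 its arterial processed intensity was 0.635, 0.0329 and 0.668. Its venous processed intensity was 0.529, -0.476 and 0.775. All 6 values lay around 0, after normalization all were at the floor of 1, and no fold change is given. In the deposited normalized table, which holds the background, this arm stood at 39.6 to 42.3, where the median probe of an array stood at 38.5 to 42.3. The levels of the 2 arms come from different probes and were not set against each other.

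**Figure D1:**
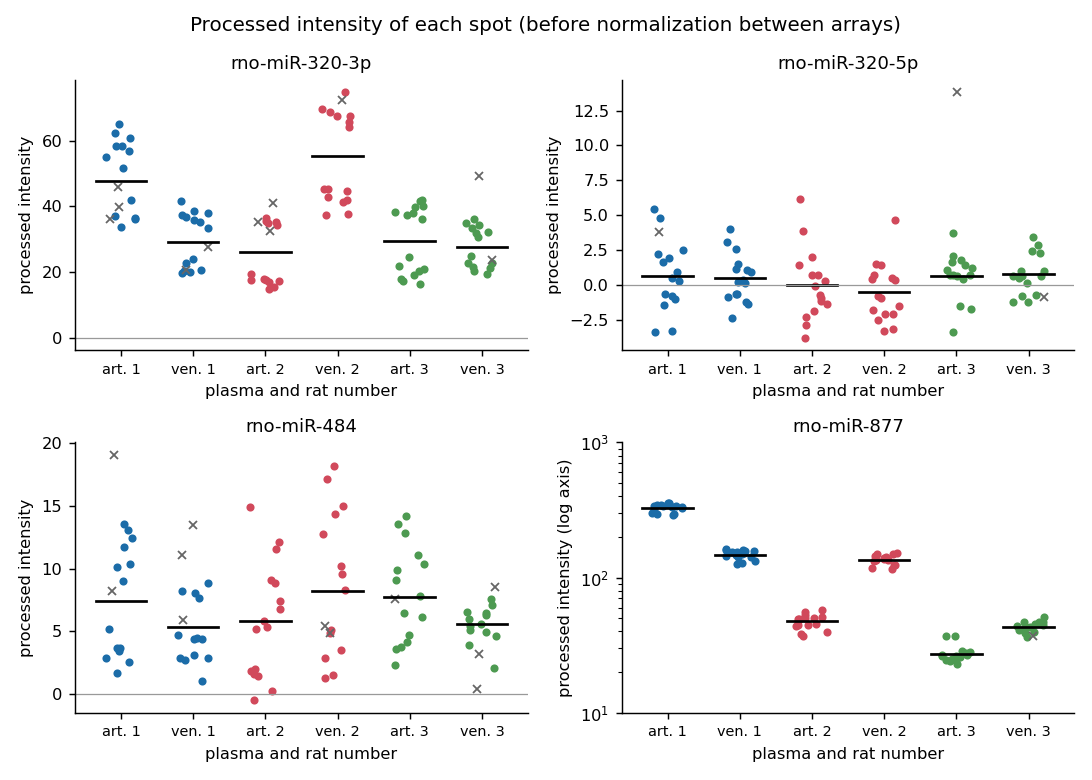
Processed intensity of each spot of the 4 arms before normalization between arrays, for arterial (art.) and venous (ven.) plasma of rats 1 to 3. Points are spots, crosses are spots flagged as outliers and left out, and bars are the mean used. The 16 spots of rno-miR-320-5p scatter around 0 on each array, those of rno-miR-484 lie just above it, and those of rno-miR-877, on a log axis, form narrow bands around means from 27.4 to 329.

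rno-miR-320-3p, the Argonaute-loaded arm of miR-320, had an arterial processed intensity of 47.7, 26.2 and 29.4 in rats 1, 2 and 3, and a venous one of 29.2, 55.2 and 27.6. After normalization the log2 intensity was 5.41, 4.44 and 4.98 in arterial and 5.44, 5.14 and 5.79 in venous plasma. The venous value was the higher one in each of the 3 rats, with almost no gap in rat 1, and the 2 groups overlapped. Arterial plasma had a mean of 4.94 ± 0.48 (SD, n = 3) and venous plasma one of 5.46 ± 0.32 (SD, n = 3). The differences within rats were -0.04, -0.70 and -0.81, which correspond to venous intensities 1.03, 1.62 and 1.75 times the arterial ones. The arterial minus venous difference was -0.51 with a standard error of 0.231 and a 95% interval of -1.43 to 0.40, and did not pass the test (adjusted p = 1 from limma). Among the 126 microRNAs detected on all arrays, 13 (10.3%) were lower in arterial plasma in all 3 rats, and 3 (2.38%) had every arterial array under every venous one, which rno-miR-320-3p had not. The exact permutation test within rats gave a two-sided p of 0.25, the smallest that 3 pairs allow. In whole plasma a difference in the cells that release RNA and one in the RNA each releases cannot be told apart.

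Both probes of rno-miR-320-3p gave a mean difference below 0, of -0.58 and -0.41. In rat 1 the difference was 0.038 with 1 probe and -0.082 with the other, and in rats 2 and 3 it ran from -0.94 to -0.47. Without rat 1 the difference of rno-miR-320-3p was -0.75 and was past the cutoff of 0.025 that the methods set, as 4.35% of all microRNAs then were (adjusted p = 0.404 from limma). The direction of the mean holds relative to the other microRNAs. Without normalization between arrays the 126 microRNAs shifted by 0.40 toward arterial plasma in the median. There rno-miR-320-3p was at -0.09, and relative to the shift it was at -0.49. Its venous over arterial ratios of processed intensity were 0.611, 2.11 and 0.937 in rats 1, 2 and 3. Before normalization the venous value was thus the higher one only in rat 2.

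rno-miR-484 was close to background. It was called detected in the arterial plasma of all 3 rats and in the venous plasma of rats 2 and 3, but not in the venous plasma of rat 1. In rats 1, 2 and 3 its processed intensity was 7.39, 5.87 and 7.77 in arterial and 5.36, 8.20 and 5.59 in venous plasma. Of its 96 spots 13 (13.5%) were well above background, and all 13 belonged to 1 of its 2 probes, A_26_P00002442. None of the 48 spots of the other, A_26_P00001865, was.

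After normalization rno-miR-484 stood at 2.60, 2.40 and 3.29 in the arterial samples of rats 1, 2 and 3, and at 2.81, 2.54 and 3.29 in the venous ones. The 2 samples of a rat were near each other, rat 3 was the highest in both kinds of plasma, and the groups overlapped. The arterial mean was 2.76 ± 0.47 (SD, n = 3) and the venous mean 2.88 ± 0.38 (SD, n = 3). The difference was -0.12 with a standard error of 0.0594 and a 95% interval of -0.35 to 0.12 (adjusted p = 1 from limma, exact permutation p = 0.5 within rats). Its direction was not stable: the mean difference was 0.01 with probe A_26_P00002442, and 0.15 without normalization between arrays, or -0.25 relative to the shift of 0.40. Probe A_26_P00001865 gave -0.48, but none of its spots was well above background, so that its value does not bear on the direction. In the total gene signal of Feature Extraction, where the undetected venous sample of rat 1 is set to 0.1, the difference was 1.91.

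rno-miR-877, the mirtron, varied most between samples of the 4 arms. Its arterial processed intensity was 329, 47.3 and 27.4 in rats 1, 2 and 3, and its venous one 148, 136 and 43.4, so that the brightest array stood 12.0 times above the dimmest. All 96 spots were well above background. The spots of a probe agreed closely, with a coefficient of variation between 1.15 and 18.6% and a median of 4.87%. After normalization its log2 range over the 6 arrays was 2.92, or 7.54-fold, and 6 of the 126 microRNAs detected on all arrays, rno-miR-877 included, had a range at least as large, where the median range was 1.12.

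The normalized log2 intensity of rno-miR-877 was 7.82, 5.22 and 4.91 in the arterial samples of rats 1, 2 and 3, and 7.50, 6.53 and 6.53 in the venous samples. The order ran from the arterial and then the venous sample of rat 1, through the venous samples of rats 2 and 3, which held the same rank on their arrays and so the same value, to the arterial samples of rats 2 and 3. The groups overlapped because of rat 1, whose arterial sample was above every venous one. The arterial mean was 5.98 ± 1.60 (SD, n = 3), with the larger spread, and the venous mean 6.85 ± 0.55 (SD, n = 3).

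**Figure D2:**
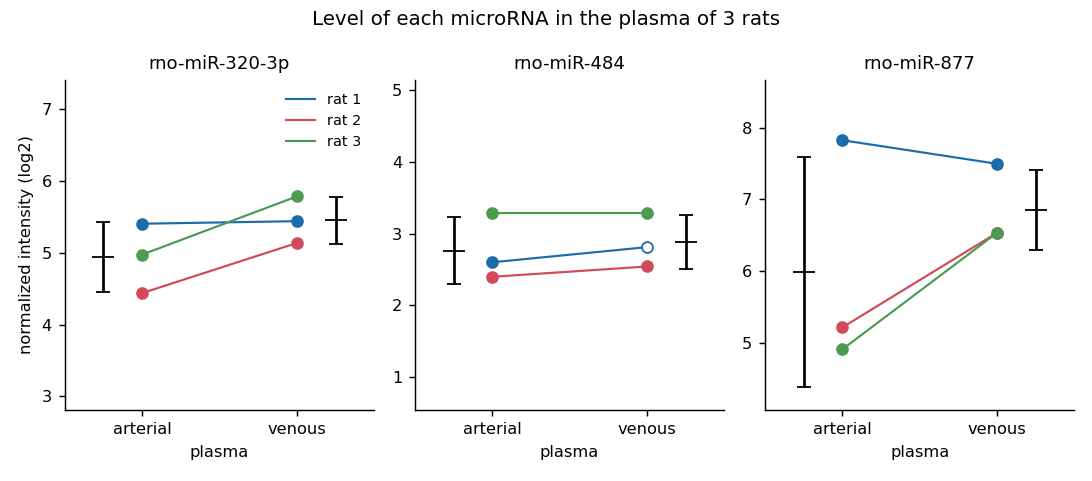
Normalized log2 intensity of the 3 arms with a signal in arterial and venous plasma, with a line joining the 2 samples of a rat, the mean and SD of each group (n = 3) at the sides, and an open circle where the arm was not called detected. Axes span the same number of log2 units. The lines of rno-miR-320-3p rise toward venous plasma, those of rno-miR-484 are nearly flat, and rno-miR-877 rises steeply in rats 2 and 3 but not in rat 1.

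The difference of rno-miR-877 was 0.33 in rat 1, -1.32 in rat 2 and -1.62 in rat 3. In rats 2 and 3 the venous intensity was thus 2.49 and 3.08 times the arterial one, and in rat 1 it was 0.796 times. The mean difference was -0.87 with a standard error of 0.579 and a 95% interval of -3.16 to 1.42, which did not pass the test (adjusted p = 1 from limma, exact permutation p = 0.5 within rats). In size it was the most negative mean difference among the 126 microRNAs detected on all arrays, whose middle values ran from -0.22 to 0.14 between the quartiles. This place held under 9 of 15 other settings and moved to between 2 and 8 in the others, to 7 without rat 2 and to 8 without rat 3. Among the 9, both percentile scalings and no normalization shift the microRNAs of an array alike and so act as a single setting. Both floors left the difference of rno-miR-877 as it was. rno-miR-320-3p was at place 7 of the 126, and between 6 and 17 under the same settings.

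All 4 probes of rno-miR-877 gave the same picture, with mean differences from -0.95 to -0.81, and with the difference above 0 in rat 1 and below it in rats 2 and 3 for each probe. Without rat 1 the difference of rno-miR-877 was -1.47 and was past the unadjusted cutoff too (adjusted p = 0.489 from limma). With rat 1 left out, 33 of all 758 microRNAs (4.35%) were past that cutoff, 14 of them (1.85%) higher in venous plasma, against 6 (0.792%) with all rats. On the slide of rats 1 and 2 the mean difference of rno-miR-877 was -0.49, and on the slide of rat 3 it was -1.62. Over all rats and without normalization between arrays the difference of rno-miR-877 was -0.34, or -0.75 relative to the shift of 0.40. On the slides of rats 1 and 2 and of rat 3 the difference of rno-miR-320-3p was -0.37 and -0.81, and that of rno-miR-484 -0.18 and 0.

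**Figure D3:**
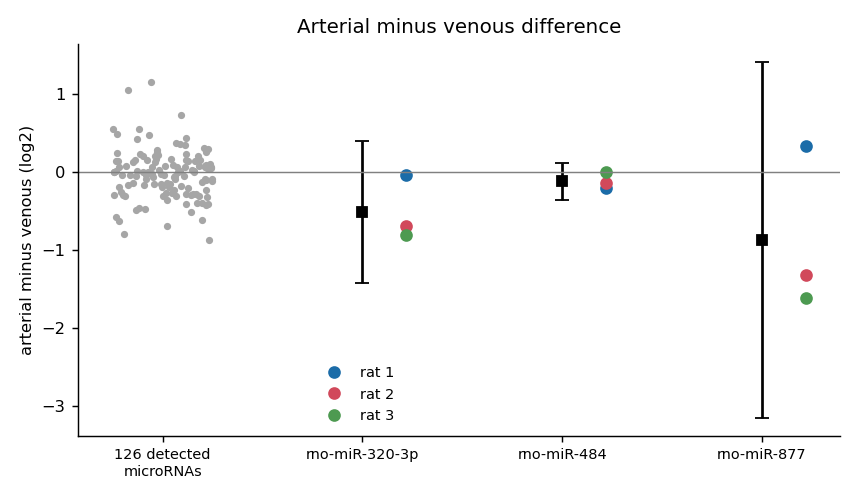
Arterial minus venous difference on the log2 scale of normalized intensity. Grey points are the mean differences of the 126 microRNAs detected on all arrays, squares with bars are the mean and 95% interval from limma, and coloured points are single rats. All 3 intervals include 0, and rno-miR-877 has the widest, with rat 1 at 0.33 and rats 2 and 3 at -1.32 and -1.62.

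None of the 4 arms was past the cutoff of 0.025 between arterial and venous plasma, where 0.792% of all 758 microRNAs were. The 758 include the 378 at the floor on all arrays, which could not be called. At an adjusted p of 0.05 limma called 0 of the 758 (0%), with 12 under an unadjusted 0.05. The methods' paired t-test was run on the intensities normalized here, not on the authors' table. By it 4 of the 758 were past the cutoff and 0 remained after adjustment. In a fit of just those 126 microRNAs that every array detected, 3 (2.38%) were past the cutoff, and neither rno-miR-320-3p nor rno-miR-877 was among them (adjusted p = 0.646 and 0.670 from limma). The arms detected on all arrays made 1 pair, rno-miR-320-3p and rno-miR-877. The difference of rno-miR-320-3p minus that of rno-miR-877 was -0.36 in rat 1, 0.62 in rat 2 and 0.81 in rat 3, with a mean of 0.36 ± 0.63 (SD, n = 3 rats). For this single pair the exact permutation test over rats gave a two-sided p of 0.5, adjusted and unadjusted alike.

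The means of single rats lay further apart for rno-miR-877 than its means in arterial and venous plasma. Over both kinds of plasma its mean was 7.66 in rat 1, 5.88 in rat 2 and 5.72 in rat 3. This range of 1.94 was reached or exceeded by 8 of the 126 microRNAs detected on all arrays, itself among them, where the median range was 0.71. Rats 1 and 2 shared a slide, and rat 1 exceeded rat 2 by 1.79 within it. The F test over the 3 rats did not pass in the fit of all 758 microRNAs (adjusted p = 1 from limma). In the fit of those 126 alone it passed the unadjusted cutoff (adjusted p = 0.0880 from limma), as did 31 of those 126 (24.6%), of which 3 (2.38%) passed after adjustment.

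For rno-miR-484 the mean was 2.71, 2.47 and 3.29 in rats 1, 2 and 3. The F test over rats was past the unadjusted cutoff (adjusted p = 0.584 from limma) in the fit of all microRNAs, in which 26 of 758 (3.43%) were. In a fit of the 201 microRNAs with a detected array it was not (adjusted p = 0.158 from limma), where 51 (25.4%) were past the cutoff and 24 (11.9%) passed after adjustment. Under 10 of 17 alternatives, no normalization between arrays among them, the F test of rno-miR-484 was not past the cutoff. Before normalization its venous intensity was 5.59 in rat 3 and 8.20 in rat 2. Rat 3, the high one, is alone on its slide, so that rat and slide cannot be told apart there. rno-miR-320-3p had means of 5.43, 4.79 and 5.38 and did not pass the F test over rats (adjusted p = 1 from limma).

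Profiles over the 6 arrays were compared by the root mean square difference of log2 values after each microRNA was centred on its own mean, among microRNAs detected on all arrays. This is a description of 6 arrays from 3 rats, which share rats and slides. Because the nearest were chosen on these same values, highs and lows that they share with an arm largely follow from the choice. The nearest to rno-miR-320-3p were rno-miR-1306-3p at 0.140, rno-miR-125a-3p at 0.148 and rno-miR-486 at 0.152, where the median of the other microRNAs was 0.546. Each of these 3 was lowest in the arterial plasma of rat 2, as rno-miR-320-3p was. Their own differences were -0.31, -0.69 and -0.57, none past the cutoff. Of the 3, rno-miR-486 is a microRNA of red cells. In rats 1, 2 and 3 it stood at 8.61, 7.59 and 8.36 in arterial and at 8.84, 8.61 and 8.84 in venous plasma, higher in the venous sample of every rat.

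The nearest to rno-miR-877 were rno-miR-762 at 0.383, rno-miR-292-5p at 0.566 and rno-miR-3560 at 0.575, where the median of the others was 1.15. Like rno-miR-877, all 3 were highest in the arterial and then the venous plasma of rat 1, which the choice by likeness favours. rno-miR-762 stood at 8.36, 6.25 and 5.996 in arterial and 7.76, 6.76 and 6.67 in venous plasma of rats 1, 2 and 3. Its difference was -0.19, that of rno-miR-292-5p was 0.05 and that of rno-miR-3560 was 0.07, none past the cutoff. Their mean differences were thus smaller in size than that of rno-miR-877, a contrast that was not tested. The sequences of these neighbours are shown, with the seed in capitals, because none shares the seed of rno-miR-877. rno-miR-762 has 83.3% G and C, reached or exceeded by 2 of the 114 sequences, and rno-miR-292-5p has 50% and rno-miR-3560 54.5%.
rno-miR-762: gCGGGGCUagggccggga
rno-miR-292-5p: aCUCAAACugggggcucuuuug
rno-miR-3560: cAAAUCCUugcccgggugcauu

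**Figure D4:**
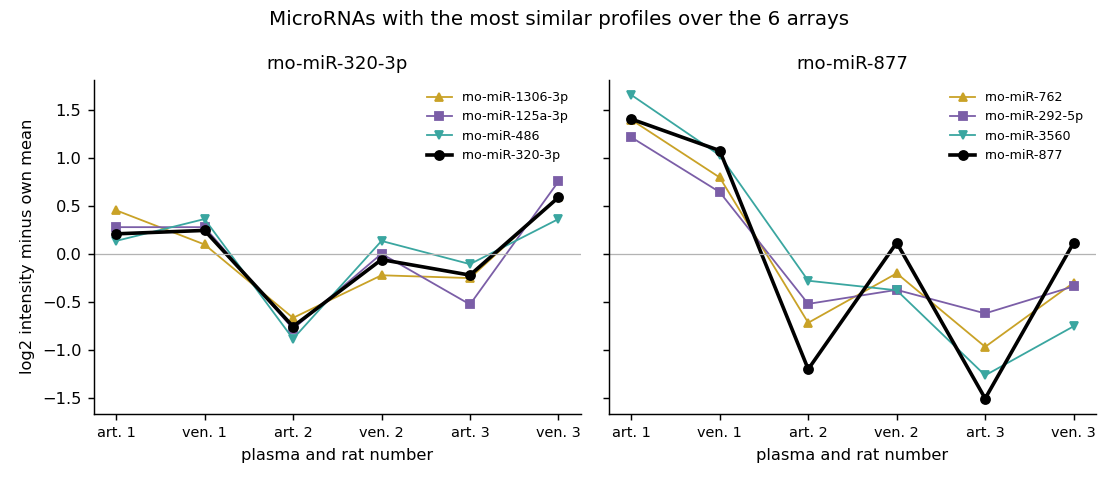
Log2 normalized intensity of rno-miR-320-3p and rno-miR-877 (black) and of the 3 microRNAs nearest to each (coloured), every one centred on its own mean over the 6 arrays of arterial (art.) and venous (ven.) plasma of rats 1 to 3. The neighbours, chosen for likeness on these same values, dip with rno-miR-320-3p in the arterial plasma of rat 2. Those of rno-miR-877 share its high values in rat 1.

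Other microRNAs with a noncanonical route, which skips the usual cut by Drosha or that by Dicer, were taken as a list of 17 names. Of these 17, 15 were on the array. Of these 15, 4 were detected on all arrays and 10 on none. No member was past the cutoff in either direction, where 0.528% of all microRNAs were in the arterial and 0.264% in the venous direction. The median difference was -0.065 over the 4 detected and -0.0040 over the 126 microRNAs detected on all arrays. Over the 15 and over all 758 it was 0, which the many values at the floor fix. The 4 detected were the mirtrons rno-miR-702-3p and rno-miR-1224, rno-miR-344g of the capped family, and rno-miR-451-5p, a red cell microRNA whose precursor is cut by Argonaute 2 in place of Dicer.

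Both detected mirtrons of the list were read beside rno-miR-877. rno-miR-702-3p stood at 3.67, 3.92 and 4.11 in arterial and 4.41, 3.51 and 4.99 in venous plasma of rats 1, 2 and 3, lower in arterial plasma in rats 1 and 3 and higher in rat 2. rno-miR-1224 was at 9.71 in all arterial samples and at 9.05, 9.71 and 10.49 in venous ones. Both overlapped between groups, with mean differences of -0.40 and -0.04. The arterial sample of rat 1, in which rno-miR-877 was highest, was not the highest for rno-miR-702-3p. rno-miR-1224 lay among the highest ranks of each array, where quantile normalization allows only widely spaced levels, here 9.05, 9.71 and 10.49. No contrast with rno-miR-877 is therefore drawn from it.

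rno-miR-344g stood at 3.57, 3.26 and 2.61 in arterial and 3.14, 3.47 and 3.09 in venous plasma, with a difference of -0.09. rno-miR-344a-5p, which shares the seed of rno-miR-484, was detected on no array and stayed at the floor on all 6, as did 3 of the other arms of the capped family. rno-miR-451-5p was at 10.49 on 5 arrays and at 9.71 in the venous sample of rat 3, so that its difference of 0.26 rests on the rank in that single array, near the top of the scale. Arms made from small nucleolar RNA (rno-miR-664 and rno-miR-1839) numbered 5, of which 4 were detected on no array and the other, rno-miR-664-3p, on 2.

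**Figure D5:**
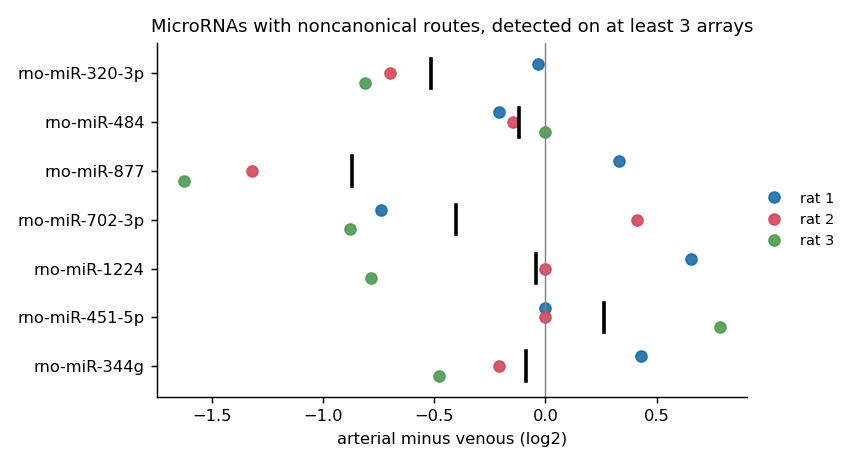
Arterial minus venous difference on the log2 scale for each rat (coloured points) and its mean (black bar), for rno-miR-320-3p, rno-miR-484 and rno-miR-877 and for the 4 other microRNAs with a noncanonical route that were detected on at least 3 arrays. rno-miR-877 has the widest spread between rats, and single rats lie on both sides of 0 for rno-miR-877, rno-miR-702-3p, rno-miR-1224 and rno-miR-344g.

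Marker microRNAs of blood cells were read beside these levels. Of 5 erythrocyte markers 4 were detected on all arrays, and rno-miR-144-5p on none. The summed normalized intensity of the 5 was 2038 to 2261 in arterial and 1698 to 2385 in venous plasma, and the groups overlapped. In all samples but the venous one of rat 3, most of that sum was rno-miR-451-5p, which lay at a top rank on each array. Without it, a choice made after the values were seen, the other 4 summed to 702, 597 and 820 in arterial and to 825, 944 and 862 in venous plasma of rats 1, 2 and 3. This sum was lower in the arterial sample of every rat, with no overlap between the groups, but its single markers did not all run that way. Only rno-miR-486, already chosen as a near profile of rno-miR-320-3p, was lower in the arterial sample of every rat, with log2 differences of -0.23, -1.02 and -0.47 in rats 1, 2 and 3. In rat 3 the other 4 of the 5 markers were higher in arterial plasma, rno-miR-144-3p by 1.1, rno-miR-144-5p by 0.83, rno-miR-451-5p by 0.79 and rno-miR-16-5p by 0.23 on the log2 scale. Among the 126 single microRNAs detected on all arrays, 13 (10.3%) were lower in arterial plasma in all 3 rats. Every arterial array was under every venous one for 3 of the 126 (2.38%). The 5 platelet and leukocyte markers were all detected on all arrays, with sums of 513 to 965 in arterial and 673 to 915 in venous plasma. Of these, rno-miR-150-5p of lymphocytes, was also lower in arterial plasma in each rat, by log2 differences of -0.22, -0.40 and -0.58, while the other 4 were lower in arterial plasma in rat 1 and higher in rat 3. Of 3 liver markers 2 were detected on all arrays, with sums of 74.3 to 585 in arterial and 94.2 to 267 in venous plasma, lowest in both samples of rat 1, where rno-miR-877 was highest. Of 4 muscle markers none was detected on all arrays, with sums of 4 to 10.0 in arterial and 6.99 to 8.38 in venous plasma, and rno-miR-208a-3p was at the floor on all 6. The part of these cells in the levels of the 4 arms was not tested.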

How the data were processed

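Plasma microRNAs were measured on 6 single-colour Agilent Rat miRNA arrays. The authors deposited the spot intensities of Agilent Feature Extraction, background-subtracted and not normalized between arrays (version 10.7.3.1 per the file headers, 11.0.1.1 per the submitters' processing notes), and a table of intensities quantile normalized with GeneSpring, linear and with the background included. On every array its ranks equal those of the raw median signal of a probe's first listed spot (Spearman 1). Its 6 columns were matched by accession.

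Control spots were left out, as were outlier spots (8.72 to 10.4% of an array). Spots were averaged to probes and probes to microRNAs, the 758 values were quantile normalized between arrays, and log2 was taken with a floor of 1. limma 3.58.1 in R 4.3.3 was fitted over all 758 with the rat as block, two-sided, at an unadjusted cutoff of 0.025, from the methods, and at 0.05 after Benjamini-Hochberg adjustment. The steps were tested on simulated data. The rat number in the labels pairs the samples. Deviations of same-numbered samples from their group means correlated at 0.799, 0.686 and 0.635 in rats 1, 2 and 3 over the 126 microRNAs detected on all arrays. Rat 3 is alone on its slide, so that rat and slide cannot be told apart in its value. Differently numbered samples are not given beside these values, which therefore do not test the pairing. Precision is limited by the small number of arrays. The alternatives changed the scaling, intensity, outlier spots, probe summary, floor, filter, block, test and rats used.

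The 4 arms and the lists of other routes and of blood cell, liver and muscle markers were chosen with earlier results of these data known. Named were the 4 arms, the 3 nearest profiles of each arm detected on all arrays, listed microRNAs detected on at least 3 arrays, and microRNAs sharing a seed. The list of other routes also named rno-miR-1225 and rno-miR-1226, not found on the array. rno-miR-664-3p, rno-miR-144-3p, rno-miR-144-5p, rno-miR-16-5p, rno-miR-150-5p and rno-miR-208a-3p were named after their values were seen. Sequences are from RefSeq (GRCr8), where 685 of the 758 names matched. The array files name another build and give no coordinates. The qRT-PCR and enrichment analyses of the paper were not used here.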

Additional observations from a re-analysis of the deposited data

How the results depend on the processing

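The mean differences of rno-miR-320-3p and rno-miR-877 stayed below 0 under every alternative that moved them, from -0.75 to -0.09 and from -1.47 to -0.34. Without normalization that of rno-miR-320-3p was below 0 because of rat 2 alone. Of the 22 alternatives run for each, the floors, filters, intensity trend, blocks and other tests left the estimates as they were. Those could not turn a sign. Of the 22 alternatives, 21 left each on the same side of the cutoff, though the exact permutation test, whose smallest possible p lies above the cutoff, could do nothing else. The exception was leaving out rat 1, which took both past it, so that 2 of the arms were called in place of 0. With 1 rat left out in turn the values ran from -0.75 to -0.37 and from -1.47 to -0.49, and rno-miR-484 ran from -0.18 to -0.07. rno-miR-484 reversed without normalization between arrays (0.15), with Feature Extraction's total gene signal (1.91) and with the last probe only (0.0425). It kept its sign under the other 18 of 21, among them those that left its estimate as it was. The pair difference of rno-miR-320-3p and rno-miR-877 stayed above 0, from 0.13 to 0.72, and the floors left it as it was. Without the replicate block, in place of the paired fit, the differences of the 3 arms were -0.51, -0.12 and -0.87, none past the cutoff, and the block changed no call of the arms. The slide as block left the same differences, none past the cutoff. rno-miR-484 could not be fitted with only microRNAs detected on all arrays. Normexp used the median spot signal, since the files hold no mean.

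The 4 arterial and 2 venous microRNAs at the cutoff became 2 arterial with the 75th percentile over all microRNAs, 4 venous with that over detected ones, 1 venous without normalization, 1 arterial with the total gene signal, 8 and 4 in the authors' table, 8 and 5 with normexp, 4 venous with outlier spots kept, 7 and 4 with the median over probes, 1 venous with the first probe only, 10 and 7 with the last probe only, 10 arterial with a floor of 0.1, 0 arterial with a floor of 5, 0 venous with only microRNAs detected on all arrays or on at least 1, 2 arterial with the slide as block and with the methods' t-test, and 0 and 0 with the exact permutation test, which cannot go below 0.25. With 1 rat left out they ran from 8 to 19 and from 9 to 14. Smaller moves are not listed, such as 6 arterial with an intensity trend and 3 arterial without the replicate block. At an adjusted p of 0.05, 0 were called under 21 of 22 alternatives, and 1 when the limma fit held the microRNAs with a detected array. The 21 include the methods' t-test, which is no limma fit, and the exact permutation test, which could call none.

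Between rats the 26 past the cutoff became 15 with the total gene signal and with a floor of 5, 158 in the authors' table, 66 with normexp, 46 with the median over probes, 42 with the last probe only, 53 with a floor of 0.1, 51 with microRNAs detected on at least 1 array, 43 with an intensity trend, and 29 to 42 with 1 rat left out. Smaller moves are not listed here either, such as 38 with the 75th percentile over all microRNAs and 20 without normalization. After adjustment the 0 became 1 with the 75th percentile over all microRNAs, the total gene signal, outlier spots kept and a floor of 0.1, 3 with the median over probes and with microRNAs detected on all arrays, 14 in the authors' table and 24 with microRNAs detected on at least 1. The 1 arm past the cutoff between rats was rno-miR-484, but rno-miR-877 in its place when the fit held microRNAs detected on all arrays (p of the F test in limma 0.0195) or on at least 1 (0.0182). The count became 0 with both percentile scalings, no normalization, the total gene signal, outlier spots kept, the first and the last probe only, 2 in the authors' table, and 0 to 2 with 1 rat left out. Rat 2 minus rat 1 reversed for rno-miR-320-3p (0.0259) and rno-miR-484 (0.14) without normalization, and for rno-miR-484 with the total gene signal (2.52). For rno-miR-877 it stayed below 0 under all 16, of which the floors, the filters, the intensity trend and leaving out rat 3 left the value as it was. The cause of these changes was not tested. Signals of rno-miR-484 and rno-miR-320-5p near background limit what can be measured.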
